A study of Mus musculus with 26 samples.

Results

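Medulloblastomas of mice given pemetrexed were compared with untreated medulloblastomas of the same kind. The comparison rests on 4 of the series' 26 microarrays: 2 tumors given pemetrexed and 2 left untreated, all 4 carrying the code mmm in their titles, by which they were chosen. The same code covers 3 tumors given gemcitabine and 3 given both drugs, which entered the fit as further groups. All 10 tumors are labelled Group3, come from C57BL/6 mice and share the genotype Trp53-/-, Cdkn2c-/- Myc, so the untreated tumors lack p53 and p18Ink4c and carry the Myc label as well. The labels give no dose, no time after the drug, no age and nothing on the host that carried the tumors. They do not say whether the tumors of a group came from separate transplants, so the spread between arrays may be partly technical.

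Group 3 medulloblastoma is a cerebellar tumor of childhood that often has high MYC. Pemetrexed is an antifolate. It enters cells mainly through the reduced folate carrier, is lengthened with glutamates by folylpolyglutamate synthase, and inhibits thymidylate synthase, dihydrofolate reductase and glycinamide ribonucleotide formyltransferase, which blocks thymidylate and purine synthesis. Loss of thymidylate stalls replication forks, so replication, checkpoint and p53 target genes are commonly read in cells given such drugs. These tumors lack p53.

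The values were the deposited log2 intensities, and each gene was read on its brightest probe set that names a single gene. A difference is the mean of the pemetrexed tumors minus the mean of the untreated tumors on the log2 scale, so that 1 unit is a 2-fold change. SE is that of the difference in limma's fit over the 10 tumors, p is limma's, and adjusted p is Benjamini-Hochberg adjusted over all genes. No gene differed between pemetrexed and untreated tumors at an adjusted p under 0.05: 0 of 17097 genes passed (0.0%), and the smallest adjusted p was 0.145. At an unadjusted p under 0.05, 1007 genes passed (5.89%), with 692 higher (4.05%) and 315 lower (1.84%) in pemetrexed tumors. Both pemetrexed tumors were above both untreated tumors for 5188 genes (30.3%) and below both for 3465 genes (20.3%). Non-overlap together with a difference of at least 2-fold was found for 95 genes higher (0.556%) and 632 genes lower (3.7%). In 603 of these 632 genes pemetrexed tumor 1 was the lower of the pair, and in 77 of the 95 it was the higher, so the larger differences were spread unevenly over the 2 tumors. An exact permutation test of 2 against 2 arrays cannot give a two-sided p below 1 in 3, and it was not used. The values below are therefore descriptions of 4 tumors, given with their intervals.

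The 4 tumors differed in the level of genes that mark normal brain cells. Markers of mature neurons averaged 6.30 and 7.53 in the pemetrexed tumors, against 8.74 and 8.26 in the untreated tumors. Oligodendrocyte markers averaged 6.58 and 7.07 in the pemetrexed tumors, against 8.83 and 7.16 in the untreated tumors. Pemetrexed tumor 1 was the lowest of the 4 for both lists, and untreated tumor 1 the highest. A brain marker score, the mean over these 32 genes relative to the 10 tumors' mean, was -0.73 and 0.21 in pemetrexed tumors, -0.60, -1.79 and 1.54 in gemcitabine tumors, -1.38, 0.54 and -0.11 in tumors given both drugs, and 1.64 and 0.68 in untreated tumors. The score thus spanned a wider range within the gemcitabine group than between the pemetrexed and untreated groups. Fewer cells of a type cannot be told apart from less RNA per cell, nor brain cells from tumor cells that express the same genes. Of the 32 score genes, 5 were also among the tumor cell genes defined below. Each list below is given with and without this score as a covariate in the fit. The score was lower in both pemetrexed tumors than in both untreated tumors, and its slope was fitted over all 10 tumors. A difference that shrinks with the score therefore cannot be assigned to brain cell content rather than to the drug. Over all 45141 probe sets, the SD of the difference between a pair of tumors was 0.403 within the pemetrexed group and 0.320 within the untreated group. Pemetrexed tumor 2 differed from untreated tumors 1 and 2 by SDs of 0.381 and 0.365, inside that range, whereas pemetrexed tumor 1 differed from them by 0.583 and 0.563.

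**Figure D1:**
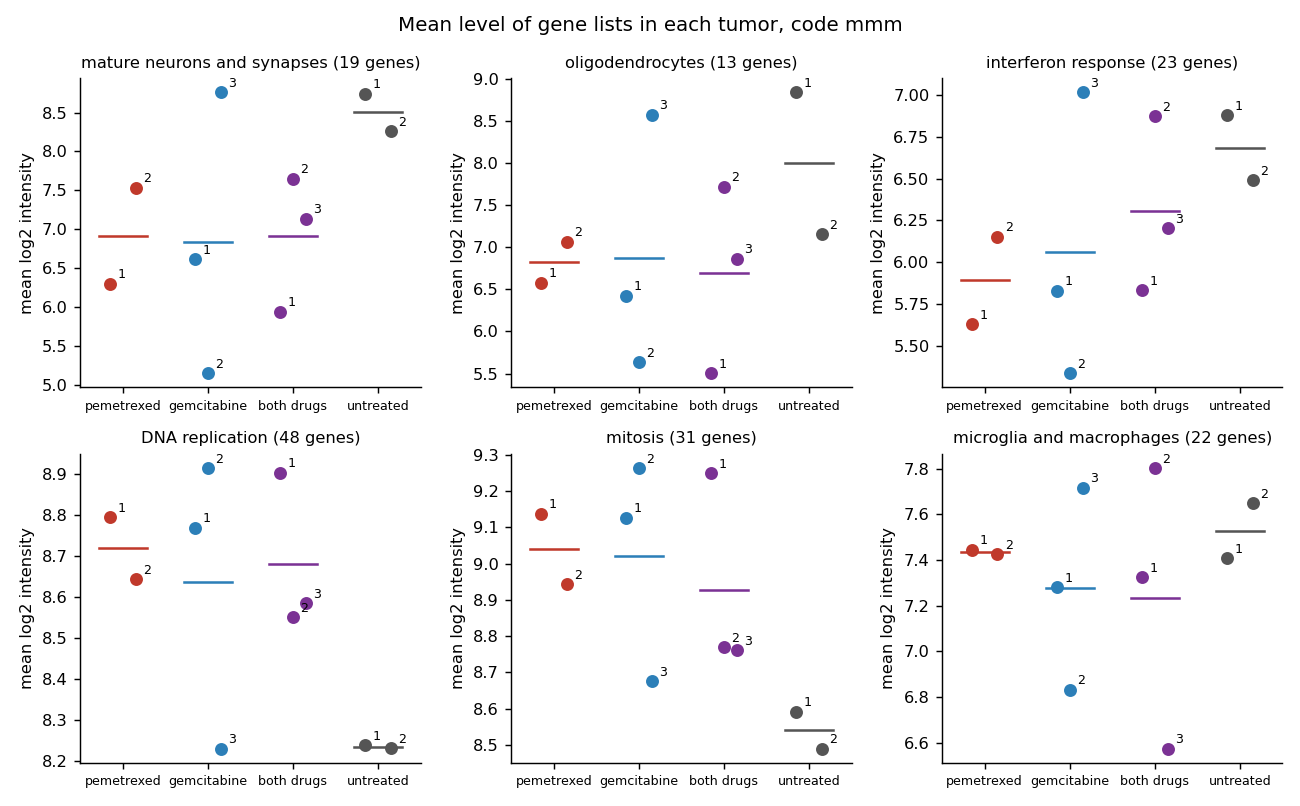
Mean log2 intensity (y axis) of 6 gene lists in each of the 10 tumors with the code mmm; each point is 1 tumor with its number, and the line is the group mean, with both drugs standing for pemetrexed plus gemcitabine. The replication and mitosis lists were higher in both pemetrexed tumors than in both untreated tumors, and the neuron, oligodendrocyte and interferon lists were lower, while gemcitabine tumor 3 had the neuron level of the untreated tumors and their level of replication genes.

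The genes that define the tumors were read first. The Myc probe set read 8.90 and 8.95 in pemetrexed tumors and 8.53 and 8.71 in untreated tumors, a difference of 0.30 with an unadjusted 95% interval of -0.59 to 1.19. Mycn, a paralog of Myc, read 15.18 and 15.16 in pemetrexed tumors against 15.12 and 15.22 in untreated tumors. These values lay close to the highest value of the 4 arrays, 15.85, and whether the probe set could read higher was not tested. Cdkn2c, which is deleted in these tumors, read 4.18 and 3.90 in pemetrexed tumors against 4.05 and 4.22 in untreated tumors, below every array's median of 4.77 to 4.81. Most genes of the human Group 3 and photoreceptor program were low in all 4 tumors. The list's mean level was 4.21 and 4.35 in pemetrexed tumors and 4.47 and 4.44 in untreated tumors, again under the array medians, with the photoreceptor regulators Crx and Nrl at or below 4.24 in each tumor. Gabra5, a GABA receptor subunit that marks human Group 3 tumors, was above them in the untreated tumors, with 4.23 and 5.33 in pemetrexed tumors against 6.59 and 8.07 in untreated tumors, and its difference of -2.55 was -0.64 with the brain score described above. Eya1, a developmental phosphatase, read 5.03 and 5.50 in pemetrexed tumors against 5.08 and 6.45 in untreated tumors. Npr3, a natriuretic peptide receptor, read 7.84 and 8.21 in pemetrexed tumors against 8.07 and 8.28 in untreated tumors. Otx2, a transcription factor that marks human Group 3 tumors, read 4.47 and 5.56 in pemetrexed tumors against 6.72 and 4.17 in untreated tumors, with the groups overlapping. Atoh1, the granule progenitor factor that marks hedgehog-driven tumors, lay between 3.21 and 3.29 in all 4. No tumor of another subgroup was compared, so these levels do not place the tumors in a subgroup, and the name used here is that of the labels.

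Among the direct targets of pemetrexed, thymidylate synthase was higher in the treated tumors. Tyms, which makes thymidylate from deoxyuridylate, read 9.74 and 9.53 in pemetrexed tumors against 8.81 and 9.01 in untreated tumors. The groups did not overlap, and the difference was 0.73 (SE 0.25), or 1.65-fold, with an unadjusted interval of 1.12-fold to 2.45-fold and an adjusted p of 0.787 in limma. Its 5 probe sets gave differences from 0.03 to 0.73, and with the brain score as a covariate the difference was 0.45. Gart, the trifunctional purine enzyme that holds the formyltransferase, read 9.61 and 9.17 in pemetrexed tumors against 9.06 and 9.23 in untreated tumors. The groups overlapped, and the difference of 0.24 became -0.19 with the covariate. Tyms in gemcitabine tumors was 9.49, 9.61 and 9.0, and in tumors given both drugs 9.80, 9.48 and 9.24, so only gemcitabine tumor 3 of these 6 fell below 9.01.

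Transport and retention genes gave a mixed picture. Slc19a1, the reduced folate carrier, read 8.44 and 8.22 in pemetrexed tumors against 7.57 and 7.72 in untreated tumors, a difference of 0.69 (SE 0.23) that was 0.59 with the covariate. Fpgs, which traps antifolates in the cell by adding glutamates, read 8.43 and 7.90 in pemetrexed tumors against 7.95 and 7.83 in untreated tumors, with overlap. Ggh, the hydrolase that removes those glutamates, read 8.46 and 8.78 in pemetrexed tumors against 8.42 and 8.42 in untreated tumors. Neither of these differed by more than its SE times the interval's multiplier of 2.30: the intervals were -0.26 to 0.81 for Fpgs and -0.22 to 0.63 for Ggh.

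The folate cycle genes differed unevenly. Mthfd1l, the mitochondrial formyltetrahydrofolate synthetase, read 8.87 and 8.79 in pemetrexed tumors against 8.13 and 8.02 in untreated tumors, a difference of 0.76 (SE 0.25). Aldh1l2, the mitochondrial formyltetrahydrofolate dehydrogenase, read 6.81 and 6.37 in pemetrexed tumors against 5.82 and 5.94 in untreated tumors. Gldc, the glycine decarboxylase that feeds one-carbon units into the mitochondrial cycle, read 9.08 and 8.96 in pemetrexed tumors against 8.58 and 8.53 in untreated tumors. With the brain score in the fit the differences were 0.71 for Mthfd1l, 0.77 for Aldh1l2 and 0.45 for Gldc, against 0.76, 0.71 and 0.47 without it. The serine hydroxymethyltransferases, cytosolic Shmt1 and mitochondrial Shmt2, differed by 0.52 and 0.39, and by 0.12 and -0.05 with the score. The mitochondrial Mthfd2l differed by 0.42, and by 0.04 with the score. Aldh1l1, the cytosolic counterpart of Aldh1l2 and an astrocyte marker, was on the other side, with 5.58 and 6.37 in pemetrexed tumors against 7.20 and 6.35 in untreated tumors, and its difference of -0.80 became 0.37 with the covariate. In all, 19 of the list's 24 genes were measured. Of these, 16 were higher and 3 lower in pemetrexed tumors, 13 did not overlap on the higher side and 0 on the lower, against 30.3% and 20.3% of all genes. The list's median difference was 0.32, against 0.05 over all genes, and 0.12 with the brain score, against 0.02. The other 5 genes of the list are not analysed here.

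**Figure D2:**
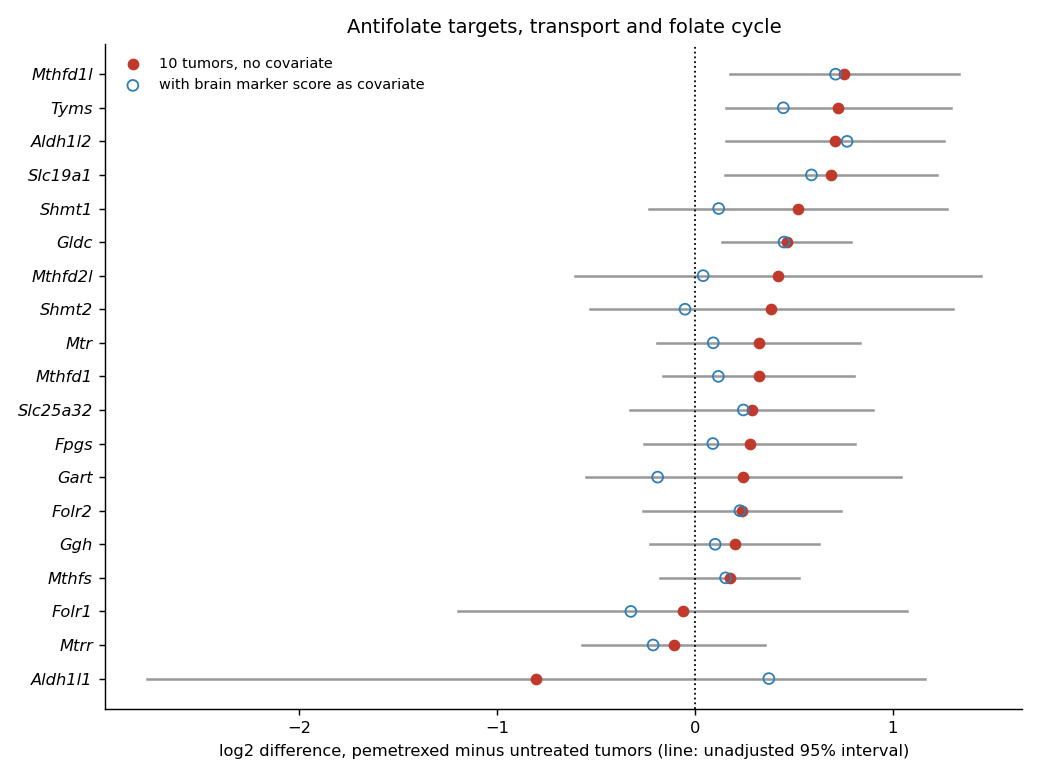
Log2 difference, pemetrexed minus untreated tumors (x axis), of the 19 measured genes of the antifolate list; filled points and lines are the differences and their unadjusted 95% intervals without a covariate, open circles the differences with the brain marker score in the fit. The intervals of Mthfd1l, Tyms, Aldh1l2, Slc19a1 and Gldc lie above 0, and Aldh1l1 changes side with the covariate. Of all genes, 4.05% were higher at an unadjusted p under 0.05 in limma.

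Genes of nucleotide synthesis and salvage followed a like pattern. Of 33 measured, 29 were higher and 4 lower in pemetrexed tumors, 23 without overlap and higher and 2 without overlap and lower, against 30.3% and 20.3% of all genes, with a median difference of 0.31 that was 0.12 with the covariate. Tk1, the S-phase thymidine kinase that salvages thymidine, differed most, with 7.80 and 7.50 in pemetrexed tumors against 6.22 and 6.72 in untreated tumors. Its difference was 1.18 (SE 0.35), or 2.26-fold, and 0.81 with the covariate. Dtymk, which phosphorylates thymidylate to the diphosphate, read 10.08 and 9.77 in pemetrexed tumors against 9.23 and 9.20 in untreated tumors. Its 2 probe sets disagree, with differences of 0.08 and 0.71. The ribonucleotide reductase subunits Rrm1 and Rrm2 differed by 0.42 and 0.33, and the p53-responsive subunit Rrm2b by -0.18 with overlap. The purine enzymes Pfas and Paics differed by 0.38 and 0.22.

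Proliferation genes were higher almost throughout. Of 48 measured DNA replication genes, 47 were higher in pemetrexed tumors, and 42 were higher without overlap, against 30.3% of all genes. None passed the adjusted threshold, and 17 had an unadjusted p under 0.05 in limma, all higher, against 4.05% of all genes on that side. The list's mean level was 8.79 and 8.64 in pemetrexed tumors against 8.24 and 8.23 in untreated tumors. Orc1, the largest subunit of the origin recognition complex, read 6.17 and 6.14 in pemetrexed tumors against 5.35 and 5.13 in untreated tumors. Gmnn, the licensing inhibitor geminin, read 8.58 and 8.59 in pemetrexed tumors against 7.66 and 7.74 in untreated tumors, a difference of 0.88 (SE 0.24). The primase subunit Prim1, the catalytic subunit Pole of the leading-strand polymerase and the helicase subunit Mcm3 differed by 0.86, 0.86 and 0.80. The factors E2f1 and Mcm2 differed by 0.62 and 0.67, whereas the clamp Pcna differed by 0.16. Pold2 was the exception, at 10.72 and 10.59 in pemetrexed tumors against 10.76 and 10.80 in untreated tumors. The list's median difference was 0.43, and 0.21 with the brain score, where 41 genes were higher and 9 of these had an unadjusted p under 0.05, against 2.97% of all genes on that side.

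All 31 measured mitosis genes were higher in pemetrexed tumors, 29 of them without overlap, against 30.3% of all genes, and 8 at an unadjusted p under 0.05, against 4.05%. Their mean level was 9.14 and 8.94 in pemetrexed tumors against 8.59 and 8.49 in untreated tumors. Kif23, a kinesin of the central spindle, read 5.07 and 5.34 in pemetrexed tumors against 4.11 and 4.19 in untreated tumors, a difference of 1.05 (SE 0.25). The other probe set of Kif23 differed by 0.29. Mki67, the proliferation antigen, read 10.63 and 10.38 in pemetrexed tumors against 9.93 and 9.94 in untreated tumors. Kif2c, a microtubule depolymerase, read 7.66 and 7.42 in pemetrexed tumors against 6.92 and 6.83 in untreated tumors, and the checkpoint kinase Aurkb 8.02 and 8.06 in pemetrexed tumors against 7.37 and 7.38 in untreated tumors. The smallest difference in the list was 0.11. The median difference of 0.53 was 0.27 with the brain score, where 25 genes were higher and 6 lower.

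DNA repair and checkpoint genes showed the same side. Of 29 measured, 28 were higher and 26 did not overlap on the higher side, against 30.3% of all genes, with 7 at an unadjusted p under 0.05, against 4.05%. Fancd2, which is monoubiquitinated at stalled forks, read 7.34 and 6.78 in pemetrexed tumors against 6.02 and 6.08 in untreated tumors. The 3 probe sets of Fancd2 gave differences from 0.51 to 1.01. Brca2, the loader of the recombinase at resected breaks, read 7.62 and 7.26 in pemetrexed tumors against 6.36 and 6.74 in untreated tumors. Clspn, the adaptor through which ATR activates the checkpoint kinase CHK1, differed by 0.82 (SE 0.22), and Chek1 itself by 0.50. Ung, which excises uracil from DNA, differed by 0.46, and Trp53bp1, which favors end joining, was lower, with 10.72 and 10.70 in pemetrexed tumors against 11.16 and 11.04 in untreated tumors. The median difference was 0.50, and 0.20 with the covariate. The neuron and oligodendrocyte markers were lower in the same tumors in which these 3 lists were higher.

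Most of the proliferation genes are bound by E2F or by the DREAM complex through short promoter elements, and for that reason the promoters are shown of the list members with the largest differences among those that hold the element upstream of the start. Sequences are from RefSeq, build GRCm38.p6, each 80 bases lying within the 250 before the gene's start, on the gene's strand. The search covered those 250 bases and the 50 after the start. The E2F element was searched as TTTGGCGC, TTTGCCGC, TTTCGCGC and TTTCCCGC on both strands and is in capitals in the first 3, where Mcm5 holds overlapping matches. The cell cycle homology region, searched as TTTGAA and TTCGAA on both strands, is in capitals in the last 2.
Orc1, chr4:108579374-108579453, plus strand: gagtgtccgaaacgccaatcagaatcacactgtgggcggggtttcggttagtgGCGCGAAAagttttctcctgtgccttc
Cdc6, chr11:98907977-98908056, plus strand: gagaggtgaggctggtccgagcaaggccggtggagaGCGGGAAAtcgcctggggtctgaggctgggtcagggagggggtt
Mcm5, chr8:75109324-75109403, plus strand: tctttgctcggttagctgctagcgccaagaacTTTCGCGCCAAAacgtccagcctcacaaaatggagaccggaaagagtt
Kif2c, chr4:117178833-117178912, minus strand: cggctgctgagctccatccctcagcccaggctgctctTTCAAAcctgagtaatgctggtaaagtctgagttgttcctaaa
Cdc20, chr4:118437344-118437423, minus strand: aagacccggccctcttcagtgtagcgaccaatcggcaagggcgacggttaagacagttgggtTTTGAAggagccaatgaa
Of the 48 replication genes, 38 had a promoter in the table, and 16 of these (42.1%) held an E2F element, against 515 of 13605 measured genes (3.79%). The homology region was found in 21 of 26 mitosis promoters (80.8%), against 17.5% of measured genes. Among these genes, Cdc6 differed by 0.75, Mcm5 by 0.57 and Cdc20, the activator of the anaphase-promoting complex, by 0.60. A match is a run of letters and does not show that a factor was bound.

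**Figure D3:**
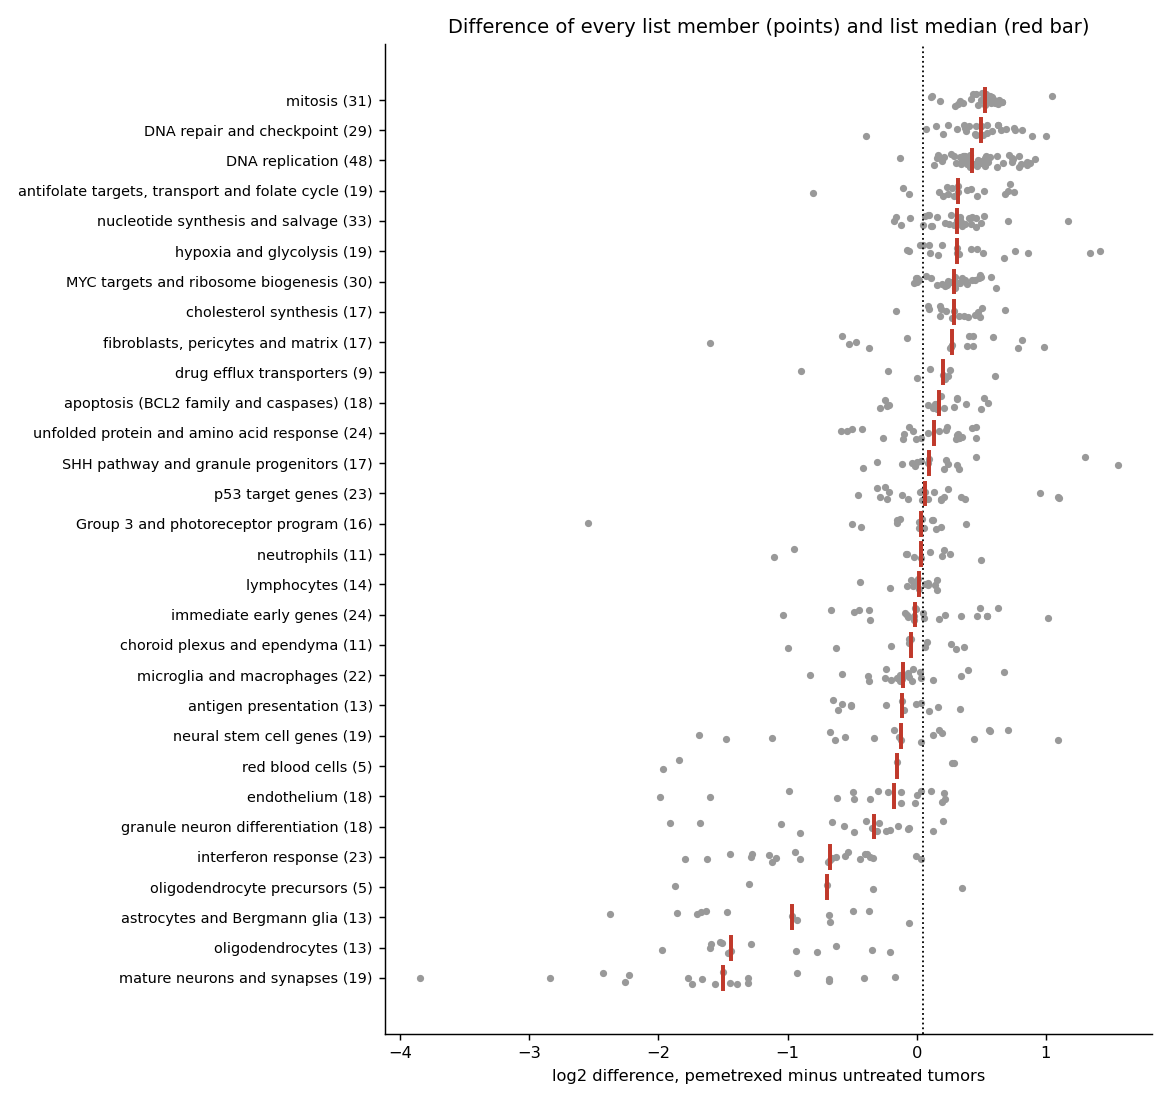
Log2 difference, pemetrexed minus untreated tumors (x axis), for each measured member (points) of 30 gene lists, with the number measured in parentheses; red bars are list medians and the dotted line is the median of all genes, 0.05. All 31 mitosis genes lie above 0 and all 19 neuron and 13 oligodendrocyte markers lie below 0.

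In direction, genes known as p53 targets were spread much as all genes were. Of 23 measured, 15 were higher and 8 lower in pemetrexed tumors, 7 without overlap and higher and 4 without overlap and lower, against 30.3% and 20.3% of all genes, and the median difference was 0.06. Of the 23, 2 were at least 2-fold higher without overlap, Eda2r and Cdkn2a, against 0.556% of all genes. Eda2r read 5.84 and 5.31 in pemetrexed tumors against 4.61 and 4.33 in untreated tumors. Its difference of 1.11 had an interval of -0.40 to 2.61, and was 0.45 with the brain score. Mdm2, which degrades p53, read 8.09 and 7.98 in pemetrexed tumors against 7.93 and 8.01 in untreated tumors. Cdkn1a, the p21 inhibitor of cyclin-dependent kinases, read 9.58 and 8.86 in pemetrexed tumors against 8.09 and 8.44 in untreated tumors, without overlap, but its interval ran from -0.53 to 2.43. Cdkn2a, which encodes p16 and p19Arf and stood in this list though it acts upstream of p53, read 7.93 and 7.73 in pemetrexed tumors against 6.54 and 6.93 in untreated tumors, a difference of 1.10 (SE 0.29). It was 7.85, 7.77 and 7.44 in gemcitabine tumors and 8.18, 7.45 and 7.39 in tumors given both drugs, all above both untreated tumors. Of the genes of apoptosis, 14 of 18 were higher, against 9882 of 17097 over all genes, with a median of 0.18 without and with the brain score. Hrk, a BH3-only activator, differed most, with 5.0 and 4.66 in pemetrexed tumors against 4.43 and 4.13 in untreated tumors. Its 2 probe sets disagree, with differences of 0.03 and 0.55.

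Growth and metabolic lists had smaller medians than the replication, mitosis and repair lists, though with the brain score cholesterol synthesis came close to replication and repair. MYC targets and ribosome biogenesis genes were higher in 27 of 30, against 9882 of 17097 over all genes. Their median was 0.29 and, with the brain score, 0.13. Nolc1, a nucleolar assembly factor, differed by 0.49 (SE 0.14) and Polr1a, the large subunit of RNA polymerase I, by 0.62. The 3 probe sets of Polr1a gave differences from 0.24 to 0.62. Cholesterol synthesis genes were higher in 16 of 17, with a median of 0.29 and, with the brain score, 0.20. Mvk, mevalonate kinase, read 6.89 and 6.56 in pemetrexed tumors against 6.17 and 5.91 in untreated tumors. Hypoxia and glycolysis genes were higher in 17 of 19, with a median of 0.31 and, with the brain score, 0.13. Adm, the hypoxia-induced peptide adrenomedullin, read 8.51 and 7.69 in pemetrexed tumors against 6.63 and 6.73 in untreated tumors, a difference of 1.42 (SE 0.38). The unfolded protein and amino acid response lay on both sides, near the share over all genes, with 14 higher and 10 lower of 24. Within it, the serine synthesis enzymes Phgdh and Psat1 differed by 0.46 and 0.43, and the folding genes Xbp1 and Hspa5 by -0.54 and -0.26. Drug efflux transporters lay on both sides too, with 7 higher and 2 lower of 9, and 4 higher and 5 lower with the brain score. Their median of 0.21 was -0.02 with the score. Abcb1b differed by 0.60 and its blood-brain barrier paralog Abcb1a by -0.90. The other probe set of Abcb1b differed by 0.01.

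Interferon response genes were lower in the pemetrexed tumors. Of 23 measured, 22 were lower and 17 did not overlap on the lower side, against 20.3% of all genes, and 7 of these were at least 2-fold lower, against 3.7%. The list's mean level was 5.63 and 6.15 in pemetrexed tumors against 6.88 and 6.49 in untreated tumors. Oasl2 and Ifit1 differed most. Oasl2, of the oligoadenylate synthetase family, read 4.40 and 5.74 in pemetrexed tumors against 6.94 and 6.79 in untreated tumors. Ifit1, which binds foreign RNA caps, read 4.13 and 6.50 in pemetrexed tumors against 7.35 and 6.53 in untreated tumors, so that pemetrexed tumor 2 lay beside untreated tumor 2. The list's median difference of -0.67 was -0.10 with the brain score in the fit, with 10 genes higher and 13 lower. Mx2, a dynamin-like antiviral GTPase, kept its difference of -0.56 (SE 0.12) at -0.51, with 4.65 and 4.54 in pemetrexed tumors against 5.26 and 5.05 in untreated tumors.
The interferon response element, searched as GAAANNGAAA on both strands and shown in capitals (as its reverse complement), stands in these promoters, whose genes were among those that differed most:
Ifit1, chr19:34640769-34640848, plus strand: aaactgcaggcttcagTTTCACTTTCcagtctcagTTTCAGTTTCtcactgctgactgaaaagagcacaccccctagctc
Ifit3, chr19:34583372-34583451, plus strand: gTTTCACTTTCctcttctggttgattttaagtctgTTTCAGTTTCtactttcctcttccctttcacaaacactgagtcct
It was in 9 of 17 interferon promoters (52.9%), against 3.59% of measured genes. Ifit3 read 6.26 and 6.99 in pemetrexed tumors against 8.44 and 7.71 in untreated tumors. Antigen presentation genes were lower in 9 of 13, against 7215 of 17097 over all genes, with a median of -0.12, and -0.14 with the brain score.

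Neuronal genes held the largest differences. All 19 measured neuron markers were lower in pemetrexed tumors, 14 without overlap, against 20.3% of all genes, and 12 of these at least 2-fold, against 3.7%. Gad1, which makes GABA, read 8.08 and 10.39 in pemetrexed tumors against 13.57 and 12.59 in untreated tumors, a difference of -3.84 whose interval ran from -8.11 to 0.42. Calb1, a calcium buffer of Purkinje cells, read 5.14 and 8.33 in pemetrexed tumors against 8.83 and 10.32 in untreated tumors. The 4 probe sets of Calb1 gave differences from -2.84 to -0.27. The 2 pemetrexed tumors lay far apart for both genes, with pemetrexed tumor 1 the lower. All 13 oligodendrocyte markers and all 13 astrocyte markers were lower as well, by medians of -1.44 and -0.97. Of the 13 astrocyte markers, 8 were also among the tumor cell genes defined below, and their median was -1.55. Mal, a myelin proteolipid, read 7.31 and 8.23 in pemetrexed tumors against 10.55 and 8.93 in untreated tumors, so that untreated tumor 1 stood highest. Gjb6, an astrocyte connexin, read 4.20 and 6.82 in pemetrexed tumors against 7.74 and 8.03 in untreated tumors. With the brain score in the fit, the medians were -0.10 for neurons and 0.29 for oligodendrocytes, whose own markers make up that score, and -0.07 for astrocytes, which are not in it.

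The other cell type lists described here had smaller median differences. Microglia and macrophage markers averaged 7.45 and 7.43 in pemetrexed tumors against 7.41 and 7.65 in untreated tumors, with 16 of 22 lower by a median of -0.11. Of the 22, 8 were lower and 1 higher without overlap, against 20.3% and 30.3% of all genes. With the brain score 19 were higher and 3 lower, by a median of 0.20. Endothelial markers averaged 5.35 and 5.45 in pemetrexed tumors against 5.63 and 5.89 in untreated tumors. The 2 largest differences were those of Slco1c1 and Ly6c1. Slco1c1, a thyroid hormone and anion transporter, read 5.97 and 6.83 in pemetrexed tumors against 8.40 and 8.38 in untreated tumors. Ly6c1, an endothelial surface antigen, read 6.59 and 6.95 in pemetrexed tumors against 8.30 and 8.45 in untreated tumors, while Pecam1, the pan-endothelial adhesion molecule, read 4.54 and 4.53 in pemetrexed tumors against 4.22 and 4.42 in untreated tumors. The differences of -1.99 for Slco1c1 and -1.60 for Ly6c1 were both -0.90 with the brain score. Of the 5 measured red blood cell genes, 3 were lower and 2 higher, with a median of -0.15, and -0.03 with the brain score. The largest difference among them was that of Hba-a1, alpha globin. It read 10.09 and 10.90 in pemetrexed tumors against 12.50 and 12.42 in untreated tumors, a difference of -1.97 (SE 0.51) that was -1.55 with the brain score. Lymphocyte and neutrophil markers averaged between 3.75 and 4.12 in all 4 tumors, under the array medians. Fibroblast and matrix genes were higher in 11 of 17, near the share over all genes (9882 of 17097), with a median of 0.27, and 0.24 with the brain score. Dcn, decorin, was lower by 1.60 and Fbln1, fibulin, higher by 0.99. The 3 probe sets of Fbln1 gave differences from -0.06 to 0.99.

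**Figure D4:**
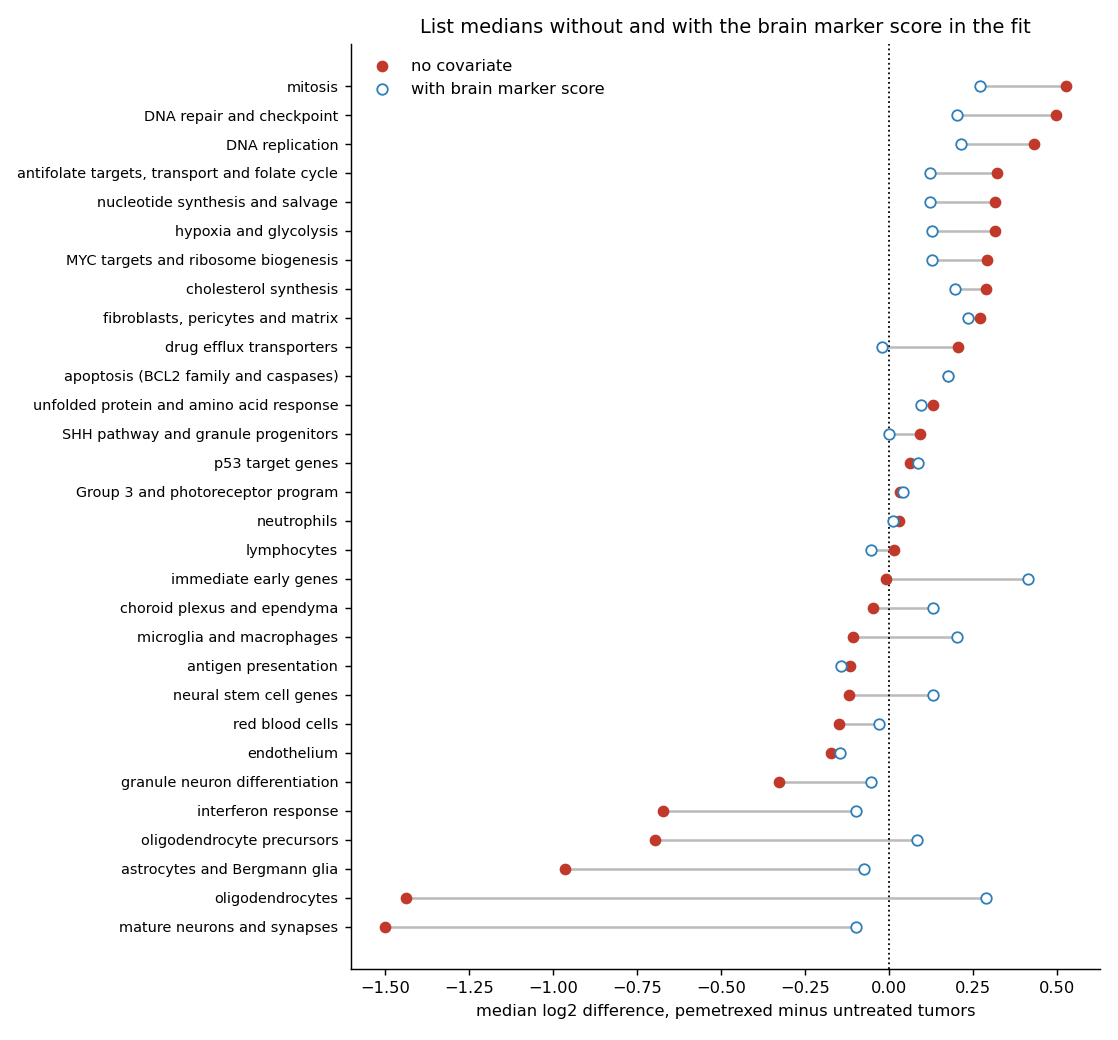
Median log2 difference, pemetrexed minus untreated tumors (x axis), of 30 gene lists without a covariate (filled) and with the brain marker score in the fit (open). The mitosis median is 0.53 without and 0.27 with the score, the interferon median -0.67 without and -0.10 with it, and the neuron median -1.50 without and -0.10 with it.

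To reduce the part of host cells, 5294 genes were taken whose level in Group3 neurospheres with the code dka was at least that in dka tumors and above 5.25, arrays that the comparison does not use. The sources used here do not say whether the values of the 2 codes were adjusted to each other. The median difference and shares that follow are those of the 5294 genes. Their median difference was 0.01, with 29.1% higher and 26.8% lower without overlap, and none passed the adjusted threshold. The neuron marker Gad1 was among them. Svil, the actin-binding supervillin, read 8.86 and 8.22 in pemetrexed tumors against 6.57 and 6.54 in untreated tumors, and Gdpd3, a lysophospholipase D, read 10.34 and 10.76 in pemetrexed tumors against 8.52 and 8.59 in untreated tumors. Their differences of 1.98 (SE 0.41) and 1.99 (SE 0.44) were 1.94 and 1.78 with the brain score. Gli2, a transcription factor of the hedgehog pathway, read 10.01 and 9.23 in pemetrexed tumors against 8.02 and 8.10 in untreated tumors, a difference of 1.56 that stayed at 1.54. The hedgehog list as a whole had a median difference of 0.09, and -0.00 with the brain score. On the lower side stood Dlg5, a scaffold of cell junctions, with 4.78 and 5.59 in pemetrexed tumors against 6.52 and 7.0 in untreated tumors, and Zfpm2, a cofactor of GATA factors, with 6.68 and 8.41 in pemetrexed tumors against 9.25 and 9.68 in untreated tumors. The 3 probe sets of Dlg5 gave differences from -1.58 to -0.08, and the 2 of Zfpm2 gave -1.92 and -0.61.

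Across all genes, the largest moderated statistic belonged to Fmo1, a flavin-containing monooxygenase that oxidizes drugs and other small molecules. Fmo1 read 8.47 and 8.09 in pemetrexed tumors against 5.92 and 6.39 in untreated tumors, a difference of 2.13 (SE 0.22), or 4.37-fold, with an unadjusted interval of 3.09-fold to 6.19-fold and an adjusted p of 0.145. It was 8.10, 8.39 and 8.45 in gemcitabine tumors and 8.20, 7.96 and 8.27 in tumors given both drugs, so all 8 drug-treated tumors were above both untreated tumors. Tcf19, a growth-regulated nuclear factor, came next, with 7.82 and 7.75 in pemetrexed tumors against 6.75 and 6.62 in untreated tumors, a difference of 1.10 (SE 0.13) and an adjusted p of 0.188. Its other probe set differed by 0.03, so the 2 probe sets disagree. Tcf19 too was higher in each of the 8 treated tumors, at 7.75 or above, than in the untreated tumors. All these comparisons share the same 2 untreated tumors. Neither difference moved by more than 0.07 with the brain score, at 2.06 for Fmo1 and 1.10 for Tcf19.

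Other genes with large statistics had an adjusted p of 0.787. Medag, an adipocyte differentiation gene, and Rhbdd1, a rhomboid protease, differed by 1.16 and 1.01. Socs2, a feedback inhibitor of cytokine signaling, read 10.22 and 10.26 in pemetrexed tumors against 9.47 and 9.65 in untreated tumors. Rdm1, a RAD52 motif protein, differed by 0.77. On the lower side, Tmem35a, which chaperones nicotinic receptors, read 10.31 and 10.41 in pemetrexed tumors against 11.05 and 11.24 in untreated tumors. Spin2c, a spindlin family gene, read 4.84 and 4.96 in pemetrexed tumors against 6.43 and 5.87 in untreated tumors. Tbr1, a transcription factor of glutamatergic neurons, and Cntnap4, a synaptic adhesion gene of interneurons, differed by -1.21 and -1.63. Spin2c and Tmem35a kept their differences at -1.21 and -0.82 with the brain score.

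**Figure D5:**
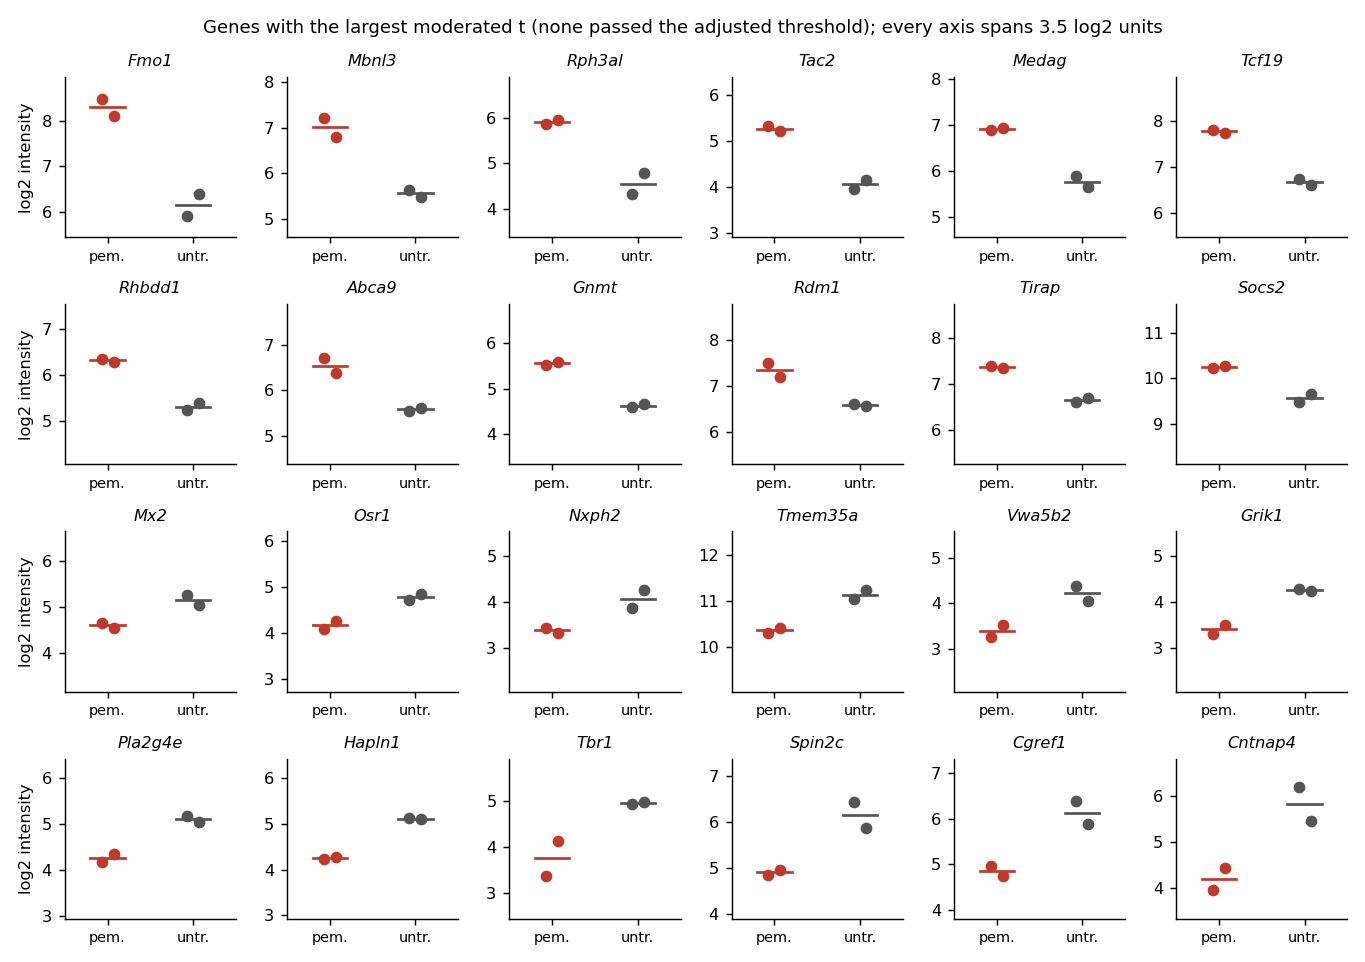
Log2 intensity (y axis) of the 12 genes with the largest positive and the 12 with the largest negative moderated statistics, in the 2 pemetrexed tumors (left, red) and the 2 untreated tumors (right, grey); each point is 1 tumor and the line its group mean. No gene's groups overlap, as the choice of genes required, and no gene passed the adjusted threshold.

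Pemetrexed tumors were also set directly against tumors given the other treatments. No gene differed from gemcitabine tumors at an adjusted p under 0.05 (0 of 17097, 0.0%, with a smallest adjusted p of 0.999 and 661 genes, 3.87%, at an unadjusted p under 0.05). None differed from tumors given both drugs either (0.0%, with a smallest adjusted p of 0.546 and 614 genes, 3.59%, unadjusted). The median difference of the replication list was 0.09 against gemcitabine tumors and 0.02 against tumors given both drugs, and that of the antifolate list 0.05 and 0.01. Rph3al, a Rab effector of secretion, and Tac2, a tachykinin precursor, were higher in both pemetrexed tumors than in any of the other 8, but the direct contrasts had adjusted p of 0.999 against gemcitabine tumors and 1 against tumors given both drugs in limma. Rph3al read 5.87 and 5.94 in pemetrexed tumors, 4.54, 4.44 and 5.13 in gemcitabine tumors, 5.06, 4.96 and 4.78 in tumors given both drugs, and 4.32 and 4.78 in untreated tumors. The other probe set of Rph3al differed by 0.16, against 1.35 for the one given, so these 2 probe sets disagree. Tac2 read 5.34 and 5.22 in pemetrexed tumors, 4.06, 3.79 and 4.48 in gemcitabine tumors, 4.52, 4.17 and 4.75 in tumors given both drugs, and 3.96 and 4.15 in untreated tumors. Mbnl3, a splicing regulator, read 7.22 and 6.79 in pemetrexed tumors and 7.33, 7.13 and 7.29 in gemcitabine tumors, but 5.32, 5.96 and 5.16 in tumors given both drugs and 5.63 and 5.49 in untreated tumors. Hba-a1 read 10.94, 11.94 and 12.76 in gemcitabine tumors and 12.67, 12.93 and 12.97 in tumors given both drugs, so both pemetrexed tumors were the lowest of the 10.

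Of the sex-linked genes, the Y-linked ones were low in all 10 tumors. Eif2s3y, a translation initiation factor subunit, lay between 5.51 and 5.74, Kdm5d, a histone demethylase, between 4.11 and 4.89, and Uty, a paralog of Utx, between 3.71 and 4.23. Neurosphere 1 of the same code read 5.61, 4.29 and 3.83 for them, while the other 3 neurospheres read at least 8.49, 7.91 and 6.43. Xist, the X-inactivation RNA, read 7.17 and 7.75 in pemetrexed tumors against 8.43 and 8.84 in untreated tumors, and over the 10 tumors it was also low in gemcitabine tumor 2, at 6.61, and high in gemcitabine tumor 3, at 8.83, the tumors with the lowest and highest brain scores of their group. With the brain score in the fit its difference of -1.17 was -0.36.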

How the data were processed

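RNA of each tumor was extracted with Trizol, amplified and biotin-labelled with NuGEN kits and hybridised to Affymetrix HT MG-430 PM arrays, per the labels' protocols. The deposited values are log2 intensities made by the authors with RMA and Partek 6.6, per the submitters' processing notes. They were used as deposited. The 10 tumor arrays with the code mmm had medians of 4.75 to 4.82 and reached from -0.41 to 15.96, while the 12 dka arrays reached from 2.56 to 13.86. The step behind the wider range is not given in the sources used here.

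Of 45141 probe sets, 28898 name a single gene, 551 several and 15692 none (104 controls among them) in the platform annotation. The brightest single-gene probe set stood for each of 17097 genes, 7180 of which had several. Probe sets of the same gene could differ in size of difference, which the text gives for some genes only. Group means were fitted with limma 3.58.1 in R 4.3.3 over the 10 mmm tumors in 4 groups (6 residual and 2.2 prior degrees of freedom), with Benjamini-Hochberg adjustment at 0.05 over all genes. The 26-array fit was kept as an alternative, since neurospheres hold no host cells and the dka arrays have another range. The number of arrays limits the precision. The code of the fit was run on simulated data in which every gene had the same spread and genes varied independently. That run does not show how the fit behaves on these tumors, where brain markers varied together. Plots were made in matplotlib 3.10.9 under Python 3.11.15.

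The comparison, its 31 gene lists (582 of 649 members measured) and the cell markers were chosen with earlier results of these data known. Genes named by rule were Myc, Mycn and Cdkn2c, the antifolate list, the 12 largest moderated statistics on each side with no overlap and no predicted genes, the 10 largest on each side among the tumor cell genes, the 2 largest of each list, and sex-linked genes. The rule asked for genes past 0.05, and since none passed it was filled by the largest statistics. The text describes part of the genes so chosen. Other list members were named after their values were seen, for their roles. The brain score used 32 neuron and oligodendrocyte markers and the host score 40 microglia and endothelium markers. Promoters came from RefSeq and were matched by symbol.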

Additional observations from a re-analysis of the deposited data

How the results depend on the processing

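Of 17 alternatives to the comparison with untreated tumors, 15 called 0 genes. Without untreated tumor 1, 5 genes were called (Grp, Ogn, Prg4, Slc47a1 and Vgll3, all lower, adjusted p 0.0246 in limma), and without untreated tumor 2, 1 was (Tfap2b, lower, adjusted p 0.03), where a single untreated array was assumed to vary like the other groups. Leaving out each replicate thus gave 0 to 5 genes. Against gemcitabine tumors it gave 0 genes throughout, and against tumors given both drugs 0 to 1, with Hhip called without combination tumor 2 (adjusted p 0.00345). With all 26 arrays and the brain score, which was added after seeing the data, 2 genes were called against gemcitabine tumors (Ifi44l and Plxdc1, adjusted p 0.0425) and 1 against tumors given both drugs (Ifi44l, adjusted p 0.0193). The number of genes at an unadjusted p under 0.05, 1007 as reported, was 2753 with only the 4 arrays compared, 2040 with gemcitabine tumor 3, which stood apart from its group, left out of the spread, 631 with dim genes left out, 319 with all 26 arrays and the brain score, 298 without pemetrexed tumor 1, 464 without untreated tumor 1 and 560 without untreated tumor 2.

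Median differences of lists moved as follows. With the brain score they were 0.213 for replication, 0.271 for mitosis, 0.203 for repair, -0.098 for interferon, -0.099 for neurons and 0.289 for oligodendrocytes, and with all 26 arrays and the brain score 0.231, 0.276, 0.261, -0.333, -0.158 and 0.461. With the host score they were 0.347 for replication, 0.453 for mitosis, 0.372 for repair, -0.454 for interferon, -0.93 for neurons and -0.766 for oligodendrocytes. Scaling each array to one interquartile range gave 0.591 for replication, 0.688 for mitosis and 0.636 for repair, while the median of all genes was 0.168 there and 0.047 as reported. Leaving out genes with a mean under 5 gave -1.016 for interferon. Leaving out each replicate gave 0.406 to 0.527 for replication, 0.406 to 0.65 for mitosis, 0.405 to 0.63 for repair, -0.956 to -0.448 for interferon, -2.08 to -0.935 for neurons and -2.317 (without untreated tumor 2) to -0.545 (without untreated tumor 1) for oligodendrocytes. None of these lists except oligodendrocytes changed sign under the alternatives run. The cause of these moves was not tested.

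Of 101 genes named, with Eda2r not counted, 86 kept their sign in every alternative and none was called in any. The others changed sign. Mycn was 0.236 with scaled arrays, 0.004 with the mean of probe sets, 0.007 with the host score, 0.094 with 26 arrays and the brain score, and 0.010 and 0.048 without pemetrexed tumor 2 and untreated tumor 2. Cdkn2c was 0.002 with scaled arrays, 0.022 with the brain score, 0.046 with the host score, 0.046 with 26 arrays and the brain score, and -0.239 to 0.045 leaving out each replicate. Otx2 was 0.432 with the brain score, 0.105 with 26 arrays and the brain score, and -1.707 to 0.850 leaving out each replicate. Atoh1 was -0.005 with quantile normalization and -0.049 with the brain score, and Pold2 was 0.052 with scaled arrays. Npr3 was 0.164 with the mean of probe sets, Eif2s3y -0.011 with the probe set of largest variance and Kdm5d 0.043 with scaled arrays, and leaving out each replicate gave -1.192 to 0.184 for Eya1, -0.336 to 0.035 for Npr3, -0.056 to 0.116 for Eif2s3y and -0.309 to 0.183 for Kdm5d. With the brain score, Gart was -0.188, Shmt2 -0.049, Aldh1l1 0.374, Rrm2b 0.038, Ifit3 0.094 and Mal 0.324, and with 26 arrays as well, Gart was -0.115, Shmt2 -0.104, Aldh1l1 0.318 and Mal 0.468. No paired analysis was possible because the labels give the groups no shared replicate numbers.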
